A study of Mus musculus with 6 samples.

Results

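The transcripts of 8 genes at the core of PI3K and AKT signaling were compared, isoform by isoform, between hematopoietic stem cells (HSCs) of IGF1- and vehicle-treated mice. The genes were taken by symbol from the 21878 rows of each library. They encode the class IA catalytic subunits p110α (Pik3ca), p110β (Pik3cb) and p110δ (Pik3cd), the regulatory subunit p85α (Pik3r1), the kinases PDK1 (Pdpk1), AKT1 (Akt1) and AKT2 (Akt2), and the phosphatase SHIP1 (Inpp5d). All 8 were among the 10449 genes tested. HSCs were sorted from the bone marrow (BM) of WT mice as Lineage-Sca1+c-Kit+ cells lacking CD34 and Flk2 (Flt3). The 3 control libraries came from vehicle-treated mice and the 3 IGF1 libraries from mice at day 1 after a single subcutaneous dose of recombinant mouse IGF1. The label of the extraction speaks of irradiated mice while the treatment label and the series design name IGF-1, which was taken here. Neither the age of the mice nor how many mice gave each library was stated in the sources used here.

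IGF1 acts through a receptor tyrosine kinase. The activated receptor and its adaptors recruit class IA PI3K, a dimer of a catalytic p110 and a regulatory subunit, which phosphorylates the membrane lipid PIP2 to PIP3. PIP3 brings PDK1 and AKT to the membrane, where PDK1 phosphorylates the activation loop of AKT, while lipid phosphatases such as SHIP1 remove PIP3. In HSCs this pathway bears on quiescence and cycling, partly through FOXO transcription factors, and p110δ and SHIP1 are mainly known from blood cells. Its activity is set largely by phosphorylation, which transcript levels do not measure.

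The sequences upstream of 3 of the genes are shown because Pik3ca and Pik3cb, isoforms of the same subunit, had opposite patterns over the libraries, and Akt1 had the highest level of the 8 genes. Each is the RefSeq promoter window (assembly GRCm38.p6) from 250 bases before to 50 bases after the start of transcription, 5′ to 3′ on the strand of the gene, taken as the window richest in CpG where a gene had several. The window of Akt1 is chr12:112674227-112674526 on the minus strand, that of Pik3ca chr3:32396815-32397114 on the plus strand and that of Pik3cb chr9:99140162-99140461 on the minus strand. Capitals mark matches to the GC box (GGGCGG, or CCGCCC for the other strand) and to the ETS core (CCGGAA, or TTCCGG for the other strand).
Akt1: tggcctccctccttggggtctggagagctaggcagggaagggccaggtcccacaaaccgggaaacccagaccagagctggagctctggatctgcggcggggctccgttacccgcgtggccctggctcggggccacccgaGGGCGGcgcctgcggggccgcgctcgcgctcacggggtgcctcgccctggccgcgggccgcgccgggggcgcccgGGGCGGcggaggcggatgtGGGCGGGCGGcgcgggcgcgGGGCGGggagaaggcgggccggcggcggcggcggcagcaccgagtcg
Pik3ca: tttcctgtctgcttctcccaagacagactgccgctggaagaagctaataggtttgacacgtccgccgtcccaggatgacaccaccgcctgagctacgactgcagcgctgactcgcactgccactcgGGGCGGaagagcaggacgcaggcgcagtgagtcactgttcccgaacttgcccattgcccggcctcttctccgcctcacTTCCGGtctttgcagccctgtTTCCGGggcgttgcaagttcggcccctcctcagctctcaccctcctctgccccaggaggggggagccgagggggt
Pik3cb: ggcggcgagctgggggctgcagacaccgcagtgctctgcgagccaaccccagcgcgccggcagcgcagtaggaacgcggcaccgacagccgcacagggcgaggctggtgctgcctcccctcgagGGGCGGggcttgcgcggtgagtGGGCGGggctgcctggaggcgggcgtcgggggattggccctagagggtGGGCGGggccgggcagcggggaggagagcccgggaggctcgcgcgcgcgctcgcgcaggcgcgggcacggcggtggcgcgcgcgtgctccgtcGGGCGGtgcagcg
The windows of Akt1 and Pik3cb held 42 and 44 CpG dinucleotides at a GC content of 79.7% and 79.0%, with 5 and 4 GC boxes and no ETS core. In Akt1, 2 of the GC boxes overlap. The window of Pik3ca held 20 CpG at 63.3% GC, with 1 GC box and 2 ETS cores. Among the 8 genes, 7 had a GC box and 2 (Pik3ca and Pdpk1) an ETS core in their window richest in CpG, against 37.3% and 15.6% of 27025 RefSeq genes whose window was chosen in the same way. Over all 16 windows of the 8 genes 8 held a GC box and 2 an ETS core, against 35.7% and 14.9% of all 32851 windows. These matches describe the letters of the windows, and no binding was measured. The shares over all RefSeq genes and windows were not matched to the 8 genes in CpG content or expression.

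Values are FPKM, the number of fragments per kilobase of a gene's transcript for a fixed total of mapped fragments, so levels of different genes may be compared. Depth recovered from the steps of the values was about 11300000 to 16100000 reads per library. The label was checked against 18 HSC marker genes, of which 10 had at least 1 FPKM in every library while Hoxb5 and Vwf stayed below 1 FPKM in all. Transcripts of the antigens absent from the gate were abundant, with Cd34 at 230 to 640 FPKM and Flt3 at 117 to 188 FPKM, and Mpo, a gene of myeloid progenitors, was at 1610 to 1700 FPKM. The cells are called HSCs here by their label alone. Control replicates 1 and 3 differed by a chi-squared of 1.52 per gene on recovered reads, and the IGF1 libraries among themselves by 1.69 to 1.89, where counting noise alone gives about 1. Control replicate 2 differed from the other controls by 229.0 and 231.0 per gene and from the IGF1 libraries by 24.6 to 28. It thus stands apart from its group and near the other one, and values are given with and without it. Marker genes of other cell types also differed between the libraries, in part gene by gene within a list. Summed over 9 progenitor markers, all at 1 FPKM or more in every library, the level was 3730 and 3790 FPKM in control replicates 1 and 3, 5760 FPKM in control replicate 2 and 5930 to 5970 FPKM across the IGF1 libraries. The granule protease gene Prtn3, at 547 and 564 FPKM, then 1520 FPKM, then 1690 to 1730 FPKM, went with that sum, as did Elane and Ctsg, while Cd48, at 272 and 283 FPKM, then 118 FPKM, then 86.6 to 93.3 FPKM, and Cd34 ran against it. The 8 B cell markers present, 2 of them below 1 FPKM in every library, summed to 111 FPKM in control replicates 1 and 3, 423 FPKM in control replicate 2 and 390 to 406 FPKM across the IGF1 libraries. The sum of 10 T and NK cell markers, 399 and 389 FPKM, then 810 FPKM, then 802 to 820 FPKM, was mostly Nkg7, at 366 and 356 FPKM, then 776 FPKM, then 767 to 787 FPKM. The T cell genes Cd3e, Cd3d and Cd8a stayed below 1 FPKM throughout, Cd3g at or below 1.16 FPKM and Cd4 at or below 2.33 FPKM. Lck, of the same list, went the other way, at 26.6 to 32.3 FPKM over the libraries. Neutrophil and monocyte markers, 14 in all, did not set control replicate 2 near the IGF1 libraries in their sum, at 975 and 987 FPKM, then 1030 FPKM, then 781 to 802 FPKM. Within that list Ngp was at 79 and 78.2 FPKM, then 11.5 FPKM, then 2.22 to 3.73 FPKM, and Ly6c2 at 26.7 and 29.6 FPKM, then 379 FPKM, then 340 to 347 FPKM. Megakaryocyte markers had sums of 55.1 and 55.5 FPKM, then 79.2 FPKM, then 103 to 113 FPKM, while erythroid markers summed to 44.3 to 92.8 FPKM and stromal and endothelial markers to 25.7 to 47.1 FPKM, both with an extreme in control replicate 2. Their part in the results was not tested, and in bulk libraries fewer cells of a type and less RNA per cell cannot be told apart.

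Among the class IA catalytic subunits, Pik3cd made up most of the transcript in every library, and IGF1 libraries differed from control replicates 1 and 3 by more Pik3ca and less Pik3cb. Neither difference held over all 6 libraries, since control replicate 2 had the most Pik3ca and the least Pik3cb of all libraries. Pik3ca, the isoform best known downstream of receptor tyrosine kinases, had 1.85, 4.37 and 2.02 FPKM in the control libraries (replicates 1, 2 and 3, the order used throughout), and 3.90, 3.65 and 3.51 FPKM in the IGF1 libraries. The groups overlapped because of control replicate 2 alone. The log2 fold change of IGF1 against control, on the log2(FPKM + 1) scale used for all fold changes, was 0.38 (95% CI -0.25 to 1.02, adjusted p = 0.245 from limma). Leaving out control replicate 2 gave 0.68 (standard error 0.075, adjusted p = 1.3e-05), under the 2-fold threshold. The IGF1 mean was then 191% of the mean of control replicates 1 and 3 on the FPKM scale.

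Pik3cb, which encodes an isoform that also answers to G protein-coupled receptors, was the mirror image. It had 3.20, 0.787 and 2.78 FPKM across the controls and 1.14, 0.818 and 0.968 FPKM across the IGF1 libraries. Control replicate 2 was lower than each IGF1 library, so that the groups overlapped again. Its log2 fold change was -0.63 (95% CI -1.44 to 0.18, adjusted p = 0.158 from limma). It was -1.01 without control replicate 2 (standard error 0.096, adjusted p = 3.5e-06), past the adjusted p and just past the fold threshold, and the IGF1 mean was 32.7% of that of control replicates 1 and 3. After removal of length and GC trends as well, it was -0.89 and no longer past the fold threshold. Pik3cb rested on the fewest reads of the 8 genes, 48 to 271 per library.

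Pik3cd encodes the leukocyte isoform and had 26.1, 18.3 and 23.8 FPKM across the controls against 20, 20.4 and 19.6 FPKM across the IGF1 libraries. The lowest value was again that of control replicate 2. The log2 fold change was -0.16 (95% CI -0.53 to 0.20, adjusted p = 0.374 from limma), and -0.31 without control replicate 2 (adjusted p = 0.00028). The sign depended on the scaling, since quantile normalization gave 0.15 and scaling to the 75th percentile 0.08. Pik3r1, whose product stabilizes and restrains the catalytic subunits, had 9.48, 13.3 and 9.34 FPKM across the controls and 11.3, 11.4 and 11 FPKM across the IGF1 libraries. Control replicates 1 and 3 lay below the IGF1 libraries and control replicate 2 above them. The log2 fold change was 0.08 (95% CI -0.31 to 0.47, adjusted p = 0.68), or 0.23 without control replicate 2 (adjusted p = 0.00221). It was -0.29 when each library was rescaled to a common sum (TPM).

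Pdpk1, encoding the kinase of the AKT activation loop, had the narrowest range of the 8 genes. Its values were 2.95, 3.51 and 3.12 FPKM across the controls and 3.26, 3.12 and 3.18 FPKM across the IGF1 libraries. The group means were 3.19 FPKM each, with an SD of 0.29 in the controls and 0.0676 in IGF1 (n = 3 each). The 95% CI of the log2 fold change ran from -0.26 to 0.26 (adjusted p = 1.0 from limma). It was 0.05 without control replicate 2 (adjusted p = 0.473), with a 95% CI of -0.10 to 0.21.

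**Figure D1:**
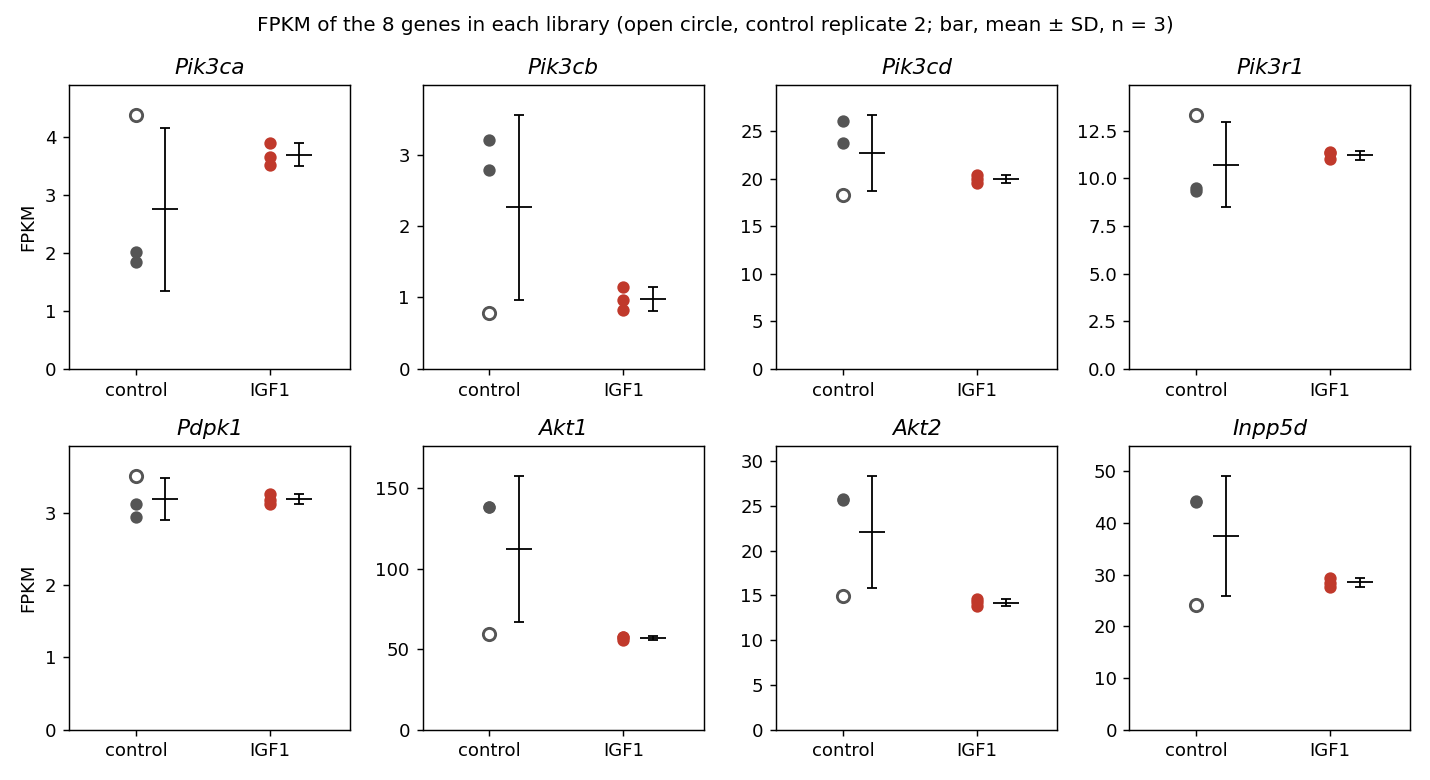
FPKM (vertical axes from 0) of the 8 genes in each of the 3 control and 3 IGF1 libraries, with the mean ± SD of each group beside the points and control replicate 2 as an open circle. The open circle lies near or past the IGF1 points in each panel, and Akt1 runs from 55.6 to 138 FPKM.

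Akt1 and Akt2 were lower in the IGF1 libraries than in each control, and are the only 2 of the 8 genes whose groups did not overlap. Among all genes tested 59.4% had groups that did not overlap. Akt1, the most abundant of the 8 genes in every library, had 138, 59.6 and 138 FPKM across the controls and 55.6, 57.4 and 57.5 FPKM across the IGF1 libraries. Control replicate 2 was above the highest IGF1 library by a margin much smaller than its distance to the other controls. The log2 fold change was -0.87 (95% CI -1.69 to -0.04) and the adjusted p from limma 0.0849, over the threshold. With that library left out Akt1 was called lower, at -1.27 (standard error 0.033, adjusted p = 2.6e-10). The IGF1 mean was 41.1% of the mean of control replicates 1 and 3.

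Akt2, encoding the isoform best known for insulin-stimulated glucose uptake, had 25.7, 14.9 and 25.8 FPKM across the controls and 14.3, 13.8 and 14.6 FPKM across the IGF1 libraries. Its log2 fold change was -0.56 (95% CI -1.11 to -0.02, adjusted p = 0.0874 from limma). Leaving out control replicate 2 gave -0.81 (adjusted p = 8e-08), under the 2-fold threshold, and the IGF1 mean was 55.2% of that of control replicates 1 and 3.

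Inpp5d, whose product SHIP1 removes the 5-phosphate of PIP3, had 44.0, 24.1 and 44.2 FPKM across the controls and 27.7, 29.4 and 28.4 FPKM across the IGF1 libraries. As in the p110 genes, control replicate 2 lay beyond the IGF1 libraries. The log2 fold change was -0.33 (95% CI -0.93 to 0.27, adjusted p = 0.285 from limma), and -0.61 without control replicate 2 (adjusted p = 2.5e-07), when the IGF1 mean was 64.5% of that of control replicates 1 and 3. Under the 75th percentile scaling the value over all 6 libraries was -0.08.

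Over the 6 libraries limma called 0 of the 8 genes at a fold change over 2 and an adjusted p under 0.05, where 6.61% of all genes tested were called. No member passed the adjusted p alone, which 20.4% of all genes did, and 2 (Akt1 and Akt2, both lower) had an unadjusted p under 0.05, against 34.4% of all genes as lower and 19.0% as higher. With voom on the recovered reads the count was also 0, where 3.66% of all genes were called higher and 6.51% lower. Without control replicate 2, 2 of the 8 genes (Akt1 and Pik3cb) were called lower, against 20.6% of all genes, and 0 were called higher, against 12.3%. The adjusted p alone was then passed by 7 of the 8, all but Pdpk1, as by 88.5% of all genes. With control replicate 2 left out, the spread within groups was close to counting noise, so p-values of that fit measure a spread that may be technical. With all 6 libraries the control spread also held the distance of control replicate 2 from the other controls. The median log2 fold change was -0.25 over the 8 genes and -0.18 over all genes tested, and -0.46 and -0.24 without control replicate 2.

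**Figure D2:**
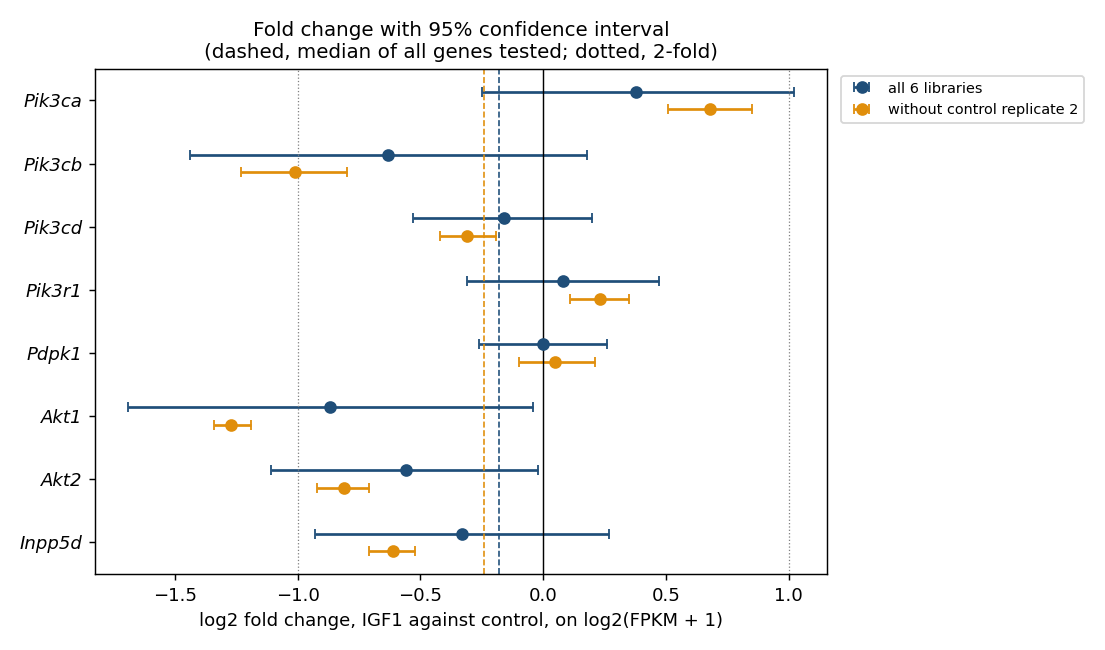
Log2 fold change of IGF1 against control on log2(FPKM + 1) with its 95% confidence interval from limma, for all 6 libraries and without control replicate 2. Dashed lines mark the median of all genes tested (-0.18 and -0.24) and dotted lines a 2-fold change; over all 6 libraries the intervals of Akt1 and Akt2 alone leave out 0.

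Control replicate 2 went past the IGF1 libraries, away from the other controls, in 6 of the 8 genes (75%), as it did in 19.1% of all genes tested. In Pdpk1, 1 of these 6, control replicate 3 and IGF1 replicate 2 round to the same value. In Akt1 and Akt2 it took a place between both sets of libraries, as in 51.6% of all genes. In none of the 8 genes did it lie within the range of control replicates 1 and 3, as it did in 3.57% of all genes. No test was made of these shares.

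Ratios within a library do not depend on how libraries are scaled to each other, and they showed the isoform balance directly. Pik3cd was 83.8%, 78% and 83.2% of the summed FPKM of the catalytic subunits in control replicates 1, 2 and 3 and 79.8%, 82.0% and 81.4% in the IGF1 libraries. Pik3ca took 5.94% and 7.07% in control replicates 1 and 3 and 14.6% to 15.6% in the IGF1 libraries, while Pik3cb took 10.3% and 9.73% and then 3.30% to 4.58%. The minor isoforms thus stood in the opposite order in these 2 sets of libraries. In control replicate 2 Pik3ca took 18.6% and Pik3cb 3.35%, the order seen in the IGF1 libraries.

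The ratio of Pik3cb to Pik3ca was 1.73, 0.18 and 1.38 in the controls and 0.293, 0.224 and 0.276 in the IGF1 libraries, a log2 difference of -1.52 (2-sided exact permutation test, p = 0.4). Without control replicate 2 it was -2.55. Pik3cd to Pik3ca was 14.1, 4.19 and 11.8 against 5.11, 5.58 and 5.58, a log2 difference of -0.71 (exact permutation p = 0.4). Control replicate 2 had the lowest ratio of all libraries in both. Pik3cd to Pik3cb was 8.15, 23.3 and 8.55 against 17.4, 24.9 and 20.2, a log2 difference of 0.81 (exact permutation p = 0.3). The summed catalytic subunits stood to Pik3r1 as 3.28, 1.77 and 3.06 against 2.22, 2.17 and 2.19, a log2 difference of -0.25 (exact permutation p = 0.4).

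Akt1 exceeded Akt2 in every library, at 79.6% to 84.3% of their summed FPKM. That sum was 164 FPKM in control replicates 1 and 3, 74.5 FPKM in control replicate 2 and 69.8 to 72.1 FPKM across the IGF1 libraries. The ratio of Akt1 to Akt2 was 5.38, 4 and 5.36 in the controls and 3.89, 4.16 and 3.95 in the IGF1 libraries, a log2 difference of -0.28 (exact permutation p = 0.2). Control replicate 2 fell within the IGF1 range here. Adjusted over the 5 ratios each p was 0.4, and the smallest p that 3 libraries against 3 can reach is 0.1. Without control replicate 2 the groups did not overlap in any of the 5 ratios. Log2 differences were then -0.43 for Akt1 to Akt2, -1.25 for Pik3cd to Pik3ca and 1.30 for Pik3cd to Pik3cb. For the catalytic subunits to Pik3r1 the difference was -0.53, and each ratio reached an exact permutation p of 0.1, the smallest possible. In the fit without that library 88.5% of all genes passed the adjusted p. How often other ratios separate was not computed, and the 5 ratios share genes.

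**Figure D3:**
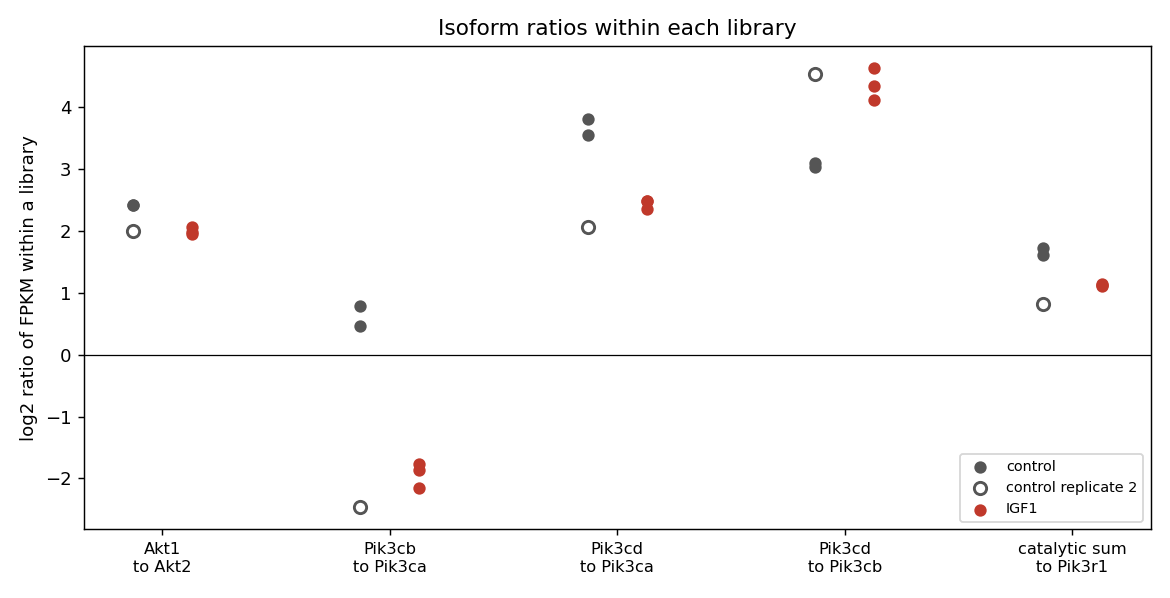
Log2 of 5 ratios of FPKM within each library, with controls in grey, control replicate 2 as an open circle and IGF1 libraries in red. Control replicates 1 and 3 stand off from the IGF1 libraries in each ratio and the open circle lies within or past the IGF1 points; Pik3cb to Pik3ca spans the widest range, from 1.73 to 0.18 on the linear scale.

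The 8 genes differ in transcript length and base composition. On the GENCODE M21 annotation of GRCm38, Pik3ca (chr3:32397671-32468486, plus strand) has a longest transcript of 8917 bases at 41.2% GC, longer than 97% of the genes tested and with more GC than only 10% of them. Akt1 (chr12:112653821-112674884, minus strand) has 2690 bases, longer than 37% of the genes, at 59.7% GC, more than 95% of them. Pik3cb (chr9:99036654-99140621, minus strand) has 6478 bases at 45.8% GC, the 90th percentile of length and the 29th of GC content. Removing the trends on length and GC content in each library moved the log2 fold change of Akt1 to -1.13 and that of Pik3cd to -0.35, and left those of Pik3ca at 0.40 and Pik3cb at -0.53. None was called.

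Scaling moved the median of all genes tested from -0.18 to 0.04 (75th percentile), -0.02 (quantile normalization) or -0.55 (rescaling to a common sum, TPM). The FPKM values summed to 466135 to 466619 in control replicates 1 and 3 and to 635111 to 680285 in the other libraries. Relative to that median, Akt1 lay at -0.95 to -0.66, Akt2 at -0.44 to -0.22, Pik3cb at -0.66 to -0.35 and Pik3ca at 0.48 to 0.67 over the scalings and the trend removal with all 6 libraries. Pik3r1 and Pdpk1, at 0.26 to 0.41 and 0.12 to 0.22, were above the median gene in each of these settings. Inpp5d lay at -0.18 to -0.08, and Pik3cd on either side of 0.

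**Figure D4:**
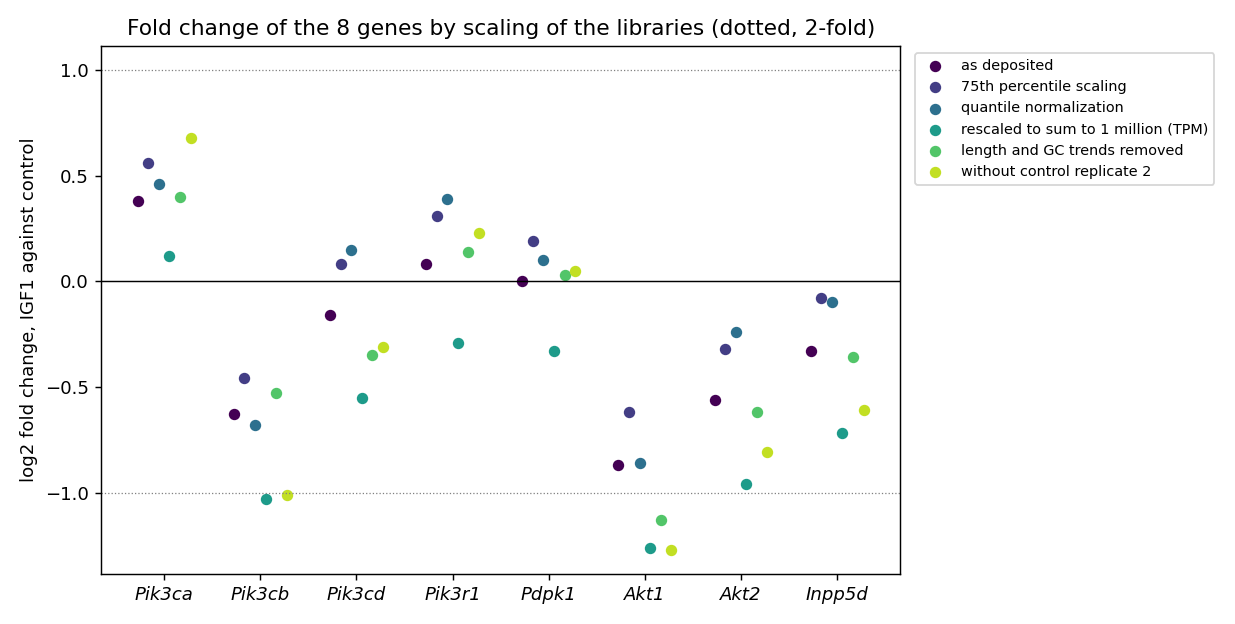
Log2 fold change of IGF1 against control (vertical axis) for the 8 genes with the values as deposited, after 3 scalings, after removal of length and GC trends, and without control replicate 2. Akt1, Akt2, Pik3cb and Inpp5d stay below 0 and Pik3ca above 0 in all 6 settings, whereas Pik3cd, Pik3r1 and Pdpk1 take both signs.

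The rest of the pathway was described with 7 lists of 87 genes, of which 75 could be tested. Over all 6 libraries 0 were called higher and 2 lower, against 1.98% and 4.63% of all genes tested, and the median log2 fold change was -0.29. At an unadjusted p under 0.05, 6 were higher and 26 lower, against the 19.0% and 34.4% of all genes given above, and voom called 1 higher and 5 lower, against 3.66% and 6.51%. Without control replicate 2, 7 were called higher and 18 lower (12.3% and 20.6% of all genes tested).

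Of the other PI3K subunits, 5 of 7 tested were below 0 and 0 were called (median -0.33). Pik3cg, the class IB catalytic subunit p110γ that acts downstream of G protein-coupled receptors, had 16.7, 7.87 and 16.8 FPKM across the controls and 6.76, 7.17 and 7.31 FPKM across the IGF1 libraries (log2 fold change -0.80, adjusted p = 0.0747 from limma). Its groups did not overlap, as in Akt1. Pik3c3, the class III kinase VPS34 of autophagy and endosomes, had 18.7, 10.9 and 18.4 FPKM against 9.23, 8.71 and 8.03 FPKM (-0.78, adjusted p = 0.0527). Both passed the thresholds as lower without control replicate 2, at -1.14 and -1.02.

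Among adaptors and regulators of PI3K 6 of 9 tested were below 0, with a median of -0.24 and 0 calls. Shc1, an adaptor of receptor tyrosine kinases, had 38.1, 16.9 and 37.6 FPKM across the controls and 12.5, 12.3 and 13.3 FPKM across the IGF1 libraries (log2 fold change -1.13, adjusted p = 0.0523 from limma). Pik3ap1, the B cell adaptor BCAP, also had groups that did not overlap (log2 fold change -0.77, adjusted p = 0.0718). Gab3, a docking protein named after its value was seen, passed the adjusted p but not the fold threshold, as the only adaptor to do so. It had 2.20, 1.91 and 1.95 FPKM across the controls and 3.33, 3.32 and 3.28 FPKM across the IGF1 libraries (0.51, adjusted p = 0.0363), and control replicate 2 lay on the side of the controls. Irs2, the docking protein of the IGF1 and insulin receptors and also chosen after its values were seen, had 4.77, 2.29 and 4.88 FPKM against 6.81, 5.37 and 5.89 FPKM (0.54, adjusted p = 0.128), with control replicate 2 the farthest from the IGF1 libraries. Leaving out that library gave -1.51 for Shc1 and -1.08 for Pik3ap1, both called lower, and 0.49 for Gab3 and 0.26 for Irs2, neither called.

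The other phosphoinositide phosphatases listed had a median of 0.08, with 5 of 8 above 0 and 0 called. Synj2, a synaptojanin, had 1.02, 1.53 and 0.915 FPKM across the controls and 1.95, 2.01 and 1.96 FPKM across the IGF1 libraries (log2 fold change 0.47, adjusted p = 0.0504 from limma). Inpp4a, which removes the 4-phosphate of PI(3,4)P2, had a log2 fold change of 0.15 (adjusted p = 0.285). Among the tested genes of this list, Synj2 and Inpp4a were those whose groups did not overlap. Without control replicate 2 their values were 0.59 (adjusted p = 4.2e-05) and 0.06 (adjusted p = 0.481).

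The AKT phosphatases had the lowest median of the 7 lists, -0.72, with 7 of 11 below 0. They are the PHLPP genes and subunits of PP2A, which dephosphorylates many substrates besides AKT. Ppp2r2a, the PP2A regulatory subunit B55α, was called lower. It had 38.6, 19.7 and 39.5 FPKM across the controls and 11.8, 11 and 12 FPKM across the IGF1 libraries, with a log2 fold change of -1.35 (95% CI -2.03 to -0.68, adjusted p = 0.0377 from limma). Ppp2ca, the catalytic subunit Cα, had 361, 141 and 371 FPKM against 102, 104 and 105 FPKM (-1.36, adjusted p = 0.0526). Ppp2r1b, a scaffold subunit, had a log2 fold change of -1.56 (adjusted p = 0.0576). The paralogous catalytic subunit Ppp2cb, chosen after its values were seen, went the other way, with 6.06, 22.6 and 5.75 FPKM across the controls and 18.8, 20.1 and 20.4 FPKM across the IGF1 libraries. Its groups overlapped through control replicate 2 (log2 fold change 1, adjusted p = 0.139). Without that library 2 of the list were called higher, among them Ppp2cb (1.59), and 6 lower, among them Ppp2r2a (-1.67), Ppp2ca (-1.81) and Ppp2r1b (-2.13).

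AKT partners and inhibitors were spread about 0, with 7 of 12 below it, a median of -0.07 and 0 called. Them4, encoding a protein that binds the carboxy terminus of AKT, was past the adjusted p but not the fold threshold. It had 3.65, 3.56 and 3.47 FPKM across the controls and 1.70, 1.99 and 1.63 FPKM across the IGF1 libraries (log2 fold change -0.72, adjusted p = 0.0287 from limma). This was the only gene of the 75 in which control replicate 2 lay within the range of the other controls. Trib3, a pseudokinase that binds AKT, had a log2 fold change of -0.60 (adjusted p = 0.054). Neither was called without control replicate 2, at -0.72 for Them4 and -0.76 for Trib3.

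AKT substrates were split, with 8 of 18 above 0, a median of -0.08 and 0 called. Bad, a pro-apoptotic BCL2 family gene, had 27.6, 64.7 and 27.4 FPKM across the controls and 73.6, 78.6 and 76.3 FPKM across the IGF1 libraries (log2 fold change 1.03, adjusted p = 0.0631 from limma). Acly, which makes cytosolic acetyl-CoA, was the reverse, with 90.2, 28 and 85.1 FPKM against 21.2, 23.4 and 22.5 FPKM (-1.39, adjusted p = 0.0616). Cdkn1b, encoding the cell cycle inhibitor p27, and Chuk, encoding IKKα, passed the adjusted p alone and were named for that after their values were seen. Their log2 fold changes were 0.98 (adjusted p = 0.0434) and -0.96 (adjusted p = 0.0412). In the fit without control replicate 2 Bad (1.44) and Cdkn1b (1.23) were called higher, and Acly (-1.93) and Chuk (-1.19) lower.

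All 10 tested substrates of PDPK1 other than AKT were below 0, with a median of -0.40, and 1 was called. The median of all genes tested was itself -0.18 in this fit, and 0.04 under 75th percentile scaling. Prkcd (-0.06) and Rps6kb2 (-0.15) lay above that -0.18. Prkci, an atypical protein kinase C of cell polarity, was called lower, with 9.03, 2.83 and 8.10 FPKM across the controls and 1.54, 1.61 and 1.48 FPKM across the IGF1 libraries. Its log2 fold change was -1.47 (95% CI -2.38 to -0.56, adjusted p = 0.0466 from limma). Sgk3, a kinase that shares substrates with AKT, had 27.8, 12.9 and 28 FPKM against 10, 10.4 and 9.75 FPKM (-1.04, adjusted p = 0.0544). Rps6ka3, encoding RSK2 and named after its value was seen, passed the adjusted p alone (log2 fold change -1, adjusted p = 0.0287). All 3 were called lower without control replicate 2, at -1.91 for Prkci, -1.39 for Sgk3 and -1.13 for Rps6ka3. Calls of Ppp2r2a and Prkci were both lost when any library other than control replicate 2 was left out, as were those of all other genes.

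**Figure D5:**
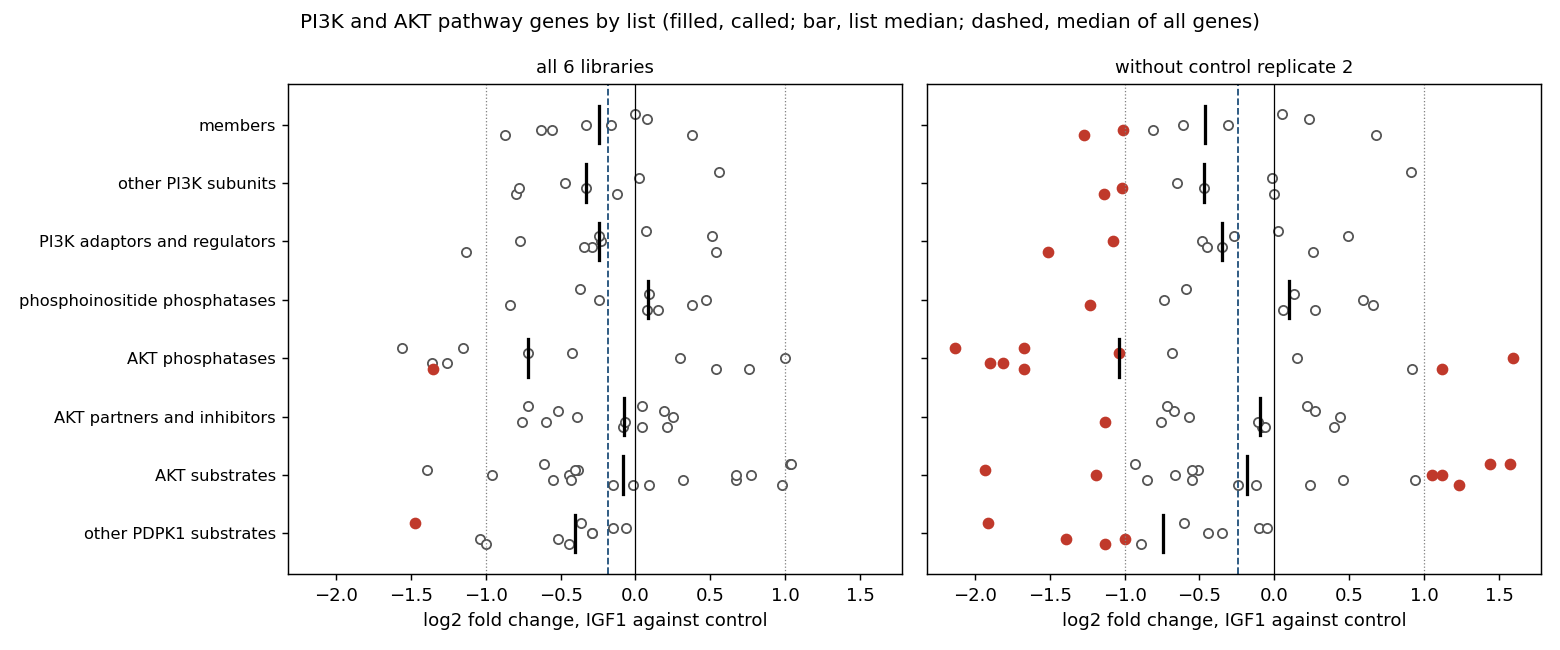
Log2 fold change of IGF1 against control for each tested gene of the 8 members and of 7 pathway lists, over all 6 libraries (left) and without control replicate 2 (right). Filled points are called, black bars are list medians, the dashed line is the median of all genes tested and dotted lines mark a 2-fold change; the AKT phosphatases have the lowest median, -0.72 on the left and -1.04 on the right.

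The members fell into a pair of opposite patterns over the 6 libraries, which is a description of points that share 6 libraries and their depth. On log2(FPKM + 1) Pearson's r was 1.0 between Akt1 and Akt2 and 0.96 between Akt1 and Inpp5d, with Pik3cb and Pik3cd on the same side. It was -0.97 between Pik3ca and Pik3cb and 0.94 between Pik3ca and Pik3r1. The genes most like Akt1 among the 10449 were Txnrd1 (r = 0.9999), Prmt3 (r = 0.9999) and Cyfip1 (r = 0.9998), and 1189 genes had an r above 0.99 with it. Those most like Inpp5d were Mcat (r = 0.9995), Plk2 (r = 0.9995) and 3110002H16Rik (r = 0.9989), with 150 genes above 0.99.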

How the data were processed

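RNA-seq libraries of sorted HSCs were grouped by the treatment label. The authors trimmed reads with fastp, and their methods name RSEM and DESeq2, whereas the submitters' processing notes list HISAT2, StringTie and GRCm38 (mm10). Each file the authors deposited pairs gene symbols with a single value, taken as FPKM because, within a gene, values were whole multiples of 1 step after scaling to relative depth. Steps gave whole reads within 0.02 read for 100.0% of 15640 genes above 0 (1.09% of 3405 jittered genes). The scale of the total depth is approximate.

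Genes that reached 1 FPKM in 3 or more libraries were fitted on log2(FPKM + 1) in limma 3.58.1 (R 4.3.3; eBayes with a trend) and called where the fold change exceeded 2 and the p adjusted by Benjamini-Hochberg over all 10449 genes was under 0.05. This scale understates changes of low genes. FPKM are not counts, so no count model was used as the main test. Procedures were tested on simulated data. Nothing states that libraries came from separate mice, so the spread may be technical.

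Members and lists were chosen with earlier results of these data known. Named genes were the members and, in each list, called genes and the 2 with the largest fold change and groups that do not overlap. Alternatives were other scalings, pseudocounts, filters and thresholds, no variance trend, voom, removal of length and GC trends (smooth, mgcv 1.9.3; 96.7% of genes had values), a replicate block and leaving out each library. Leaving out control replicate 2 together with the trends was chosen after seeing the data. Some genes of the pathway are not reported here and were left out of the lists.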

Additional observations from a re-analysis of the deposited data

How the results depend on the processing

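Over 141 refits of the 8 genes, 125 kept the direction and side of the threshold. Of the members, 0 were called higher in any setting. Those called lower, 0 over all libraries, numbered 0 to 2 when each library was left out in turn. The count was 1 with control replicate 2 left out and the length and GC trends removed, where 1515 of all genes were called lower. Leaving out any library other than control replicate 2 called 0 of all genes. Akt1 had an adjusted p of 0.0641 to 0.237 in the alternatives that kept control replicate 2, and Pik3cb one of 0.118 to 0.397. Direction turned only in 3 members. Pik3cd took 0.15 under quantile normalization and 0.08 under 75th percentile scaling. Pik3r1 took -0.29 when rescaled to a common sum (TPM) and -0.0013 to 0.23 over the libraries left out. Pdpk1, at -5.9e-06 over all libraries, took 0.1 under quantile normalization, 0.19 under 75th percentile scaling, 0.00073 with a pseudocount of 0.1, 0.028 with trends removed, 0.0067 with voom, -0.042 to 0.05 over the libraries left out, and 0.08 with control replicate 2 and the trends removed. The cause was not tested. Isoform ratios turned in no alternative. A minimum of 5 FPKM left out Pik3ca, Pik3cb and Pdpk1.

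Pathway genes called higher, 0 over all libraries, were 2 by the adjusted p alone, 1 each under quantile normalization, 75th percentile scaling, a pseudocount of 0.1, trend removal and voom, 0 to 7 over the libraries left out, and 5 without control replicate 2 and the trends. Those called lower, 2 over all libraries, were 5 by the adjusted p alone, 4 with a pseudocount of 0.1, 1 each with a pseudocount of 5, no filter or a minimum of 5 FPKM, 5 with voom, 0 to 18 over the libraries left out (18 without control replicate 2 and 0 without any other), and 11 without control replicate 2 and the trends. With the replicate block 0 were called lower, 0 members were called and Akt1 kept -0.87 (adjusted p = 0.0986 from limma). The block also called 0 of all genes tested. All genes called higher and lower were 304 and 319 under quantile normalization, 300 and 259 under 75th percentile scaling. They were 278 and 701 with a pseudocount of 0.1, 66 and 157 with one of 5, and 138 and 302 with trends removed. Without control replicate 2 they were 1281 and 2157, and with voom 382 and 680. Same-numbered libraries had correlations of -0.06, -0.05 and 0.01 in their deviations from the group mean, so no pairing was seen. In the controls these deviations come mostly from control replicate 2, so this check could miss a pairing. Depth limits Pik3cb most, at 48 reads in its lowest library.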
